A study of Arabidopsis thaliana with 18 samples.

Results

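The genotype by stage interaction in *arf6-2 arf8-3* flowers asks, for each gene, whether the difference between mutant and wild type was the same before and after the time at which wild-type flowers open. It was computed for each probe set as the *arf6-2 arf8-3* minus wild-type difference in log2 signal at stage 13, less the same difference at stage 12. An equal reading is the stage change in the mutant less the stage change in wild type. A negative value means that the mutant stood lower against wild type at stage 13 than at stage 12, and a positive value that it stood higher. The members were all 22746 probe sets of the ATH1 array (short oligonucleotide sets that each read 1 transcript or a few similar ones) other than the array's control sets, and the fit used 12 of the 18 arrays of the series. These were 3 arrays in each of 4 groups: wild-type Columbia flowers at stage 12, the largest closed buds, and at stage 13, the first open flowers, and *arf6-2 arf8-3* flowers at the same stages. A further 6 arrays, 3 at each stage, were of *myb21-5 myb24-5* flowers, which carry mutations in *MYB21* and *MYB24*, and are used in a comparison near the end. All plants were untreated Columbia grown in long days and harvested in the morning. The *arf6-2 arf8-3* plants carry mutations in both *AUXIN RESPONSE FACTOR* genes, and their flowers do not open, so the stage 13 label of the mutant cannot rest on flower opening. RNA came from whole flowers, so fewer cells of a type and less RNA per cell cannot be told apart in any value below.

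Auxin response factors are transcription factors that bind the promoters of auxin-responsive genes, among them the *Aux/IAA*, *SAUR* and *GH3* families, and are held in check by Aux/IAA proteins until auxin causes these to be degraded. ARF6 and ARF8 act together in the flower. They promote growth of petals, stamen filaments and gynoecium, and they are needed for jasmonate production in the late bud. Jasmonate removes the JAZ repressors, and *MYB21* and *MYB24* are transcription factor genes that act downstream of it in petals, stamens and nectaries. At flower opening, petals and filaments elongate through loosening of their cell walls, nectaries secrete sugar, and volatile terpenoids are made.

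The arrays were of like brightness, with medians between 7.72 and 7.79 log2, and the median SD of a probe set within a group was between 0.112 and 0.156. *ARF6* (*At1g30330*) read 9.14 to 9.77 on the 6 wild-type arrays and 4.73 to 5.27 on the 6 mutant arrays, and *ARF8* (*At5g37020*) read 9.90 to 10.57 and 5.73 to 6.41. Neither gene showed a called interaction (0.19 ± 0.28 and 0.13 ± 0.27, log2 ± SE; adjusted p = 0.945 and 0.97), so the mutated genes differed between genotypes at both stages without a detected stage dependence. It is not known from the sources used here whether their probe sets lie outside the mutated part. 2 of the 3 stage 12 mutant arrays stood apart in genes of the tapetum, the layer that nourishes developing pollen: *A9* (*At5g07230*) read 7.84 and 9.38 on replicates A and B and 5.06 on replicate C, against 4.50 to 5.84 on the other 9 arrays. *AMS*, which encodes a tapetum transcription factor, followed with 6.25 and 7.05 on A and B and 4.46 on C. Flowers of those 2 arrays thus carried tapetum transcripts that were low on the other arrays. Over all probe sets replicate C was nearer to the stage 13 mutant arrays (SD of the difference 0.344, 0.289 and 0.364 against A, B and C) than to its own group (0.415 against A and 0.481 against B), while A and B differed by 0.310. So the stage 12 mutant group was not uniform, and the calls without A and B, or without C, are given below.

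**Figure D1:**
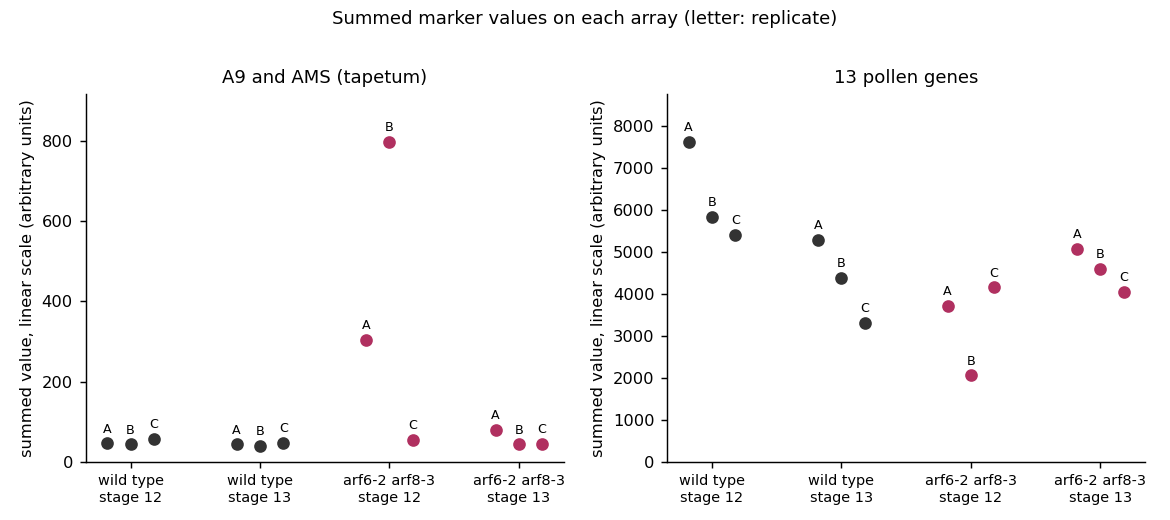
Summed linear signal (arbitrary units) of the 2 tapetum genes and the 13 pollen genes measured, 1 point per array with its replicate letter, for the 4 groups. The tapetum sum is 305 and 798 on mutant stage 12 replicates A and B and at most 79.9 on every other array, and the pollen sum falls in wild type from 5410 to 7630 at stage 12 to 3320 to 5300 at stage 13 while the mutant goes from 2060 to 4160 to 4050 to 5070.

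Most called interactions were lower, and most of these were a rise in wild type with no called change in the mutant. A probe set was called where the limma p-value, adjusted over all probe sets, was below 0.05 and the interaction was at least 2-fold. By this rule 165 probe sets (0.725% of those tested) were called lower and 57 (0.251%) higher, 222 in all (0.976%). With the replicate letter added to the fit as a block, 268 were lower and 143 higher, and all of the 165 and 57 were kept. In the fit without the block, dropping the 2-fold requirement gave 208 (0.914%) and 93 (0.409%). An unadjusted limma p below 0.05, at any fold, gave 1265 and 1165. The excess on the lower side was thus large at the adjusted threshold and small at the unadjusted one. The median called interaction was -1.65 on the lower side, with a median SE of 0.24, and 1.66 on the higher side, with a median SE of 0.29. Over all probe sets the median was 0 and the 5th and 95th percentiles were -0.56 and 0.55. At 4-fold or more, 46 probe sets were lower and 13 higher. The largest interaction, -4.19, belonged to a probe set that is not named in the tables used here, as were 75 of the 222, and a further 4 match several genes.

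Each called interaction was sorted by what its stage change did within each genotype. Of the 165 lower probe sets, 143 (86.7%) rose in wild type between stages 12 and 13 and were called in neither direction in the mutant, with medians of 1.78 in wild type and 0.03 in the mutant. Of the other lower probe sets, 21 were called in neither genotype, and 1, *MLP28*, fell in the mutant. Of the 57 higher probe sets, 43 (75.4%) fell in wild type without a called change in the mutant, with medians of -1.69 and -0.01, 10 were called in neither genotype, and 4 rose in the mutant. The interaction and the wild-type stage change use the same 6 wild-type arrays, so these classes describe the called probe sets and are no second test of them. The class counts depended on mutant stage 12 replicate C: without it 244 probe sets were called lower, of which 129 rose in wild type only and 75 fell in the mutant, and 155 were called higher, of which 71 fell in wild type only and 32 rose in the mutant. Without replicates A and B of that group, 98 were lower, of which 90 rose in wild type only, and 30 were higher, of which 22 fell in wild type only. The median interaction of the 165 and 57 probe sets themselves moved little under these omissions, between -1.60 and -1.72 and between 1.44 and 1.74.

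**Figure D2:**
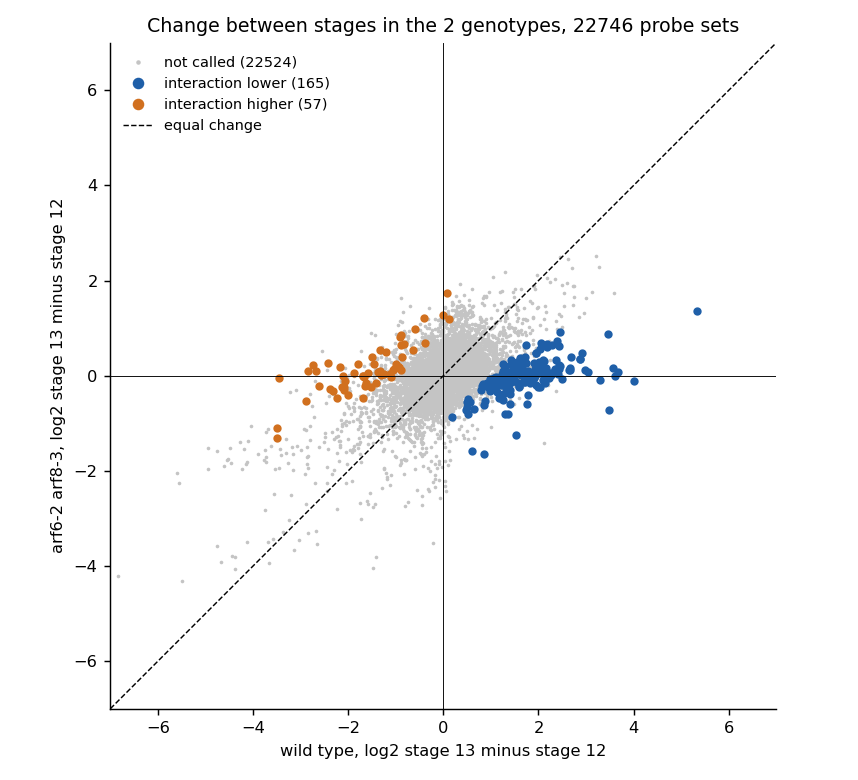
Stage 13 minus stage 12 change (log2) in *arf6-2 arf8-3* against the same change in wild type, 1 point per probe set, with the 165 called lower and 57 called higher interactions coloured. Most of the called lower points lie to the right, at a wild-type rise near 1.78 and a mutant change near 0, and most of the called higher points lie to the left.

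Of the 29 lower and 26 higher called genes named here under the rule for named genes, 14 and 8 were still called when mutant stage 12 replicates A and B were left out, which leaves 1 array in that group, and all kept the sign of their interaction. The lower calls kept were *CYP71B31*, *XTH19*, *SAUR9*, *PRX71*, *At2g43620*, *At1g07590*, *At5g67340*, *AtS40-3*, *At1g35190*, *XTH18*, *CYP76C3*, *XTH7*, *SWEET9* and *WRKY53*. The higher calls kept were *LOX4*, *JAZ5*, *GATA2*, *SAUR12*, *At1g54740*, *At5g02940*, *At5g05600* and *At5g46200*. Every other gene of that rule described below as called missed the threshold without these 2 arrays.

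Fewer stage changes were called in the mutant, by a margin that depended on the arrays kept. Arrays of the stages did not overlap in 23.1% of probe sets in wild type and 20.9% in the mutant. In wild type 433 probe sets rose (1.9%) and 394 fell (1.73%), and in *arf6-2 arf8-3* 39 rose (0.171%) and 28 fell (0.123%). The mutant count moved most with the stage 12 arrays kept: 67 probe sets changed in all (0.295%), against 693 without stage 12 replicate C, 10 without A and 7 without B. In the fit without mutant stage 12 replicate C the wild-type count was 867. Between the stages of a genotype, arrays of the same replicate letter deviated together (r from 0.348 to 0.655 in wild type and from 0.333 to 0.743 in the mutant), and with the letter as a replicate block the counts were 911 in wild type and 315 in the mutant. Of the 433 wild-type risers, 143 (33.0%) were called in the interaction, 18 also rose in the mutant, and 272 met neither call. For the 394 fallers the counts were 43 (10.9%), 15 and 336. The mutant change nonetheless had the wild-type sign in 336 of the risers (77.6%), with medians of 1.49 in wild type and 0.32 in the mutant, and in 335 of the fallers (85.0%), with medians of -1.55 and -0.61. Across all 22746 probe sets the 2 stage changes, which share no arrays, had Pearson's r = 0.538, and their SDs were 0.467 in wild type and 0.357 in the mutant. Probe sets are not independent replicates, and r is given as a description. The probe sets were chosen for a called wild-type change, which by itself makes smaller changes in the mutant likely, so these medians are a description.

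The same 222 interactions can be read as a change in the genotype difference. Over all probe sets the mutant was called lower in 2.88% and higher in 1.42% at stage 12, and in 3.69% and 2.7% at stage 13. Among the lower ones, 103 had no called difference at stage 12 and were lower in the mutant at stage 13 (medians -0.24 and -1.89), and 36 were lower at both stages (-1.92 and -3.99). A further 18 were called at neither stage, and 8 were higher in the mutant at stage 12 only. Among the higher ones, 21 were lower in the mutant at stage 12 and not called at stage 13 (-1.47 and 0.43), 15 were higher at stage 13 only, 8 were higher at both stages, 8 were called at neither, and 4 were lower at both. The remaining probe set, *At1g64800*, was lower in the mutant at stage 12 and higher at stage 13. In the mutant, 54 of the 165 lower probe sets (32.7%) and 8 of the 57 higher ones (14.0%) had means at both stages under the 25th percentile of all probe sets. The files used here hold no detection calls, so whether those transcripts were above background in the mutant is not known.

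Genes of xyloglucan remodelling were among the lowest named interactions. *XTH19* (*At4g30290*), which encodes a xyloglucan endotransglucosylase/hydrolase that cuts and rejoins the xyloglucan chains between cellulose microfibrils, read 7.5, 8.05 and 7.70 in wild type at stage 12 and 10.60, 11.60 and 12.06 at stage 13, against 4.53, 4.86 and 5.00 and then 4.93, 4.81 and 4.90 in the mutant. The 4 groups split cleanly into rising wild type and flat mutant, and the interaction was -3.59 ± 0.42 (adjusted p = 0.00237). Its chromosomal neighbour *XTH18* (*At4g30280*) was dim in 3 groups, at 4.13, 4.27 and 4.2 in stage 12 wild type and 3.92 to 4.13 on the 6 mutant arrays, and reached 6.34, 6.52 and 6.50 in stage 13 wild type alone (-2.24 ± 0.12, adjusted p = 1.7e-05). *XTH7* (*At4g37800*) was alike in the genotypes at stage 12, with 9.91, 10.12 and 9.60 in wild type and 9.15, 10.02 and 9.94 in the mutant. At stage 13 it read 12.25, 12.13 and 12.32 against 9.35, 10.28 and 9.89, an interaction of -2.22 ± 0.37 (adjusted p = 0.0145). *XTH4* followed at -1.22 ± 0.24 (adjusted p = 0.0344), a call kept in 2 of the 12 fits that each left out 1 array.

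Of the 15 *XTH* genes measured, these 4 were called lower and none higher, against 0.725% and 0.251% of all probe sets. The interaction was negative in 13, and the median was -0.71. 2 of the 4 (*XTH4* and *XTH7*) are named here through gene tables that the study drew up from these same arrays, and of the 10 *XTH* genes named by the array annotation 2 were called. The adjacent genes *EXLA1* (*At3g45970*) and *EXLA3* (*At3g45960*), whose products are expansin-like proteins of the wall, were also lower. *EXLA1* stood at 8.24, 8.53 and 7.53 in wild type and 8.52, 8.75 and 8.00 in the mutant at stage 12, overlapping, and at 10.78, 11.11 and 11.00 against 8.91, 8.87 and 8.53 at stage 13 (-2.52 ± 0.35, adjusted p = 0.00631). *EXLA3* had an interaction of -1.37 ± 0.20. The true expansins, which loosen walls without cutting them, were not called: 0 of 18 in either direction, with a median of -0.04 and a range from -1.93 for *EXPA5* (adjusted p = 0.101) to 2.43 for *EXPA24* (adjusted p = 0.211). Without mutant stage 12 replicate C *EXPA5* was called (-2.35, adjusted p = 0.0107), and without A and B it stood at -1.07. The 5 pectin-modifying genes measured, of 21 listed, were not called either, and ranged from -1.81 to 3.09. The highest, *ADPG1*, was called in 1 of 12 fits without 1 array, that without wild-type stage 12 replicate B (adjusted p = 0.00758). A missed call at such values does not show that a gene was unchanged. No test was run between the families.

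**Figure D3:**
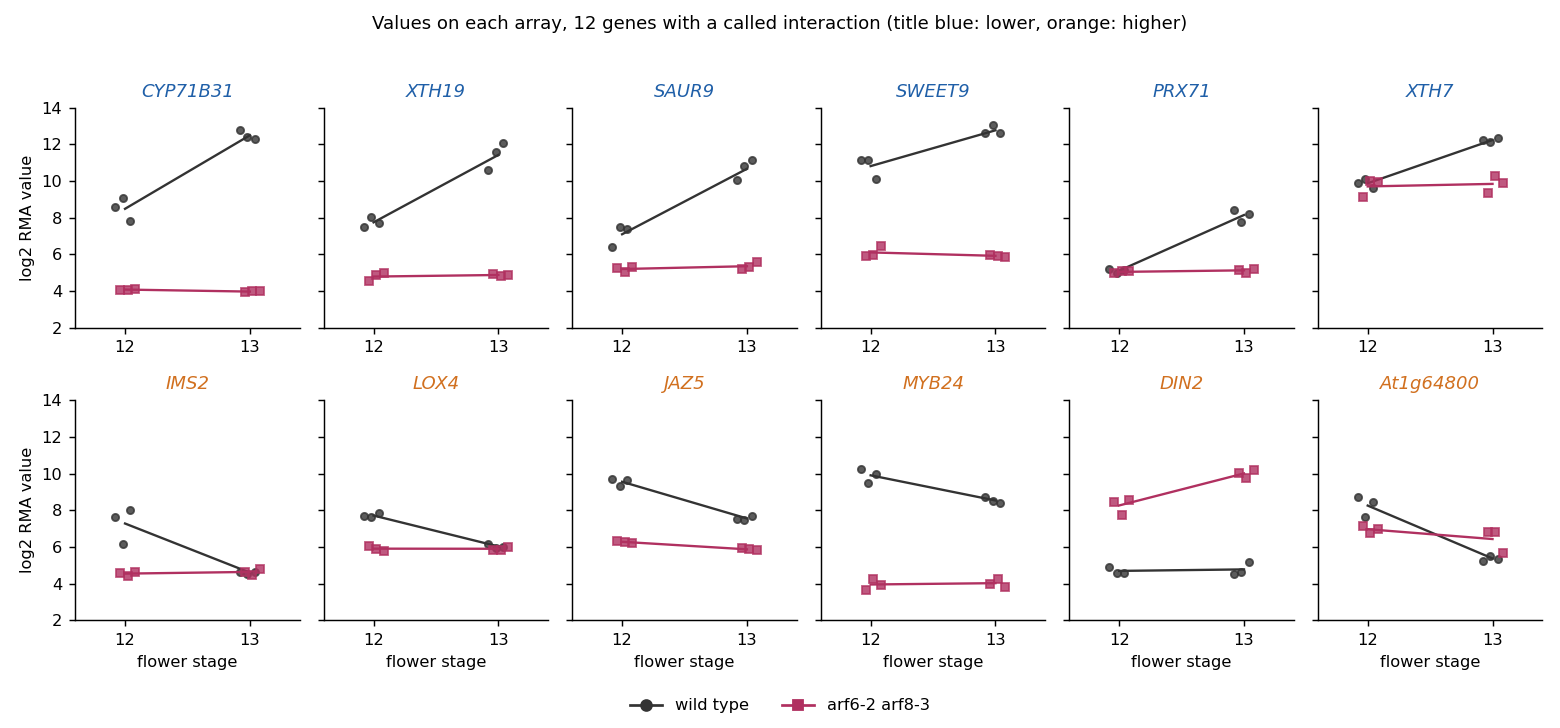
Log2 signal on each array for 12 genes in the 4 groups, with replicates as points and lines joining the group means; 6 genes have a called lower interaction (*CYP71B31*, *XTH19*, *SAUR9*, *SWEET9*, *PRX71*, *XTH7*) and 6 a called higher one (*IMS2*, *LOX4*, *JAZ5*, *MYB24*, *DIN2*, *At1g64800*). The wild-type points rise in the first 6 while the mutant points stay level, and the wild-type points fall in *IMS2*, *LOX4*, *JAZ5*, *MYB24* and *At1g64800*, whereas in *DIN2* the mutant points rise.

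Some terpenoid genes, which act in the synthesis or oxidation of floral volatiles, diverged further at stage 13 from levels that already differed at stage 12. *CYP71B31* (*At3g53300*), a cytochrome P450 gene of linalool oxidation, had the largest named interaction, -4.11 ± 0.36 (adjusted p = 0.000275). It read 8.57, 9.08 and 7.80 in wild type at stage 12 and 12.80, 12.38 and 12.29 at stage 13, a 16.0-fold rise, and between 3.95 and 4.14 on all 6 mutant arrays. *CYP76C3* (*At2g45580*), which acts on the same substrate, went from 10.94, 10.62 and 10.44 to 12.73, 12.96 and 12.87 in wild type and stayed between 6.09 and 6.28 in the mutant (-2.22 ± 0.17, adjusted p = 0.000189). The linalool synthase gene *TPS10* (*At2g24210*) rose from 11.37, 11.50 and 10.68 to 12.62, 12.86 and 12.77 in wild type and lay between 5.70 and 6.35 in the mutant (-1.73 ± 0.29, adjusted p = 0.0149). The sesquiterpene synthase gene *TPS21* was also lower (-1.38 ± 0.18, adjusted p = 0.00418), as was the monoterpene synthase gene *TPS24* (*At3g25810*; -1.56 ± 0.30, adjusted p = 0.0332, called in 4 of 12 fits without 1 array). Of the 10 terpenoid genes measured 5 were called lower and none higher, against 0.725% and 0.251% of all probe sets. The median was -1.54, and 2 of the 3 named by the array annotation were among the 5. *TPS14*, a linalool synthase gene too, was at 0.01, and *TPS04* at 0.23. For *CYP71B31*, *CYP76C3*, *TPS10* and *TPS24* the mutant means at both stages lay 4.4 log2 or more under wild type, so the interaction of these genes was the wild-type rise seen against a mutant signal that was low throughout.

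Nectary and sugar-handling genes gave fewer calls. *SWEET9* (*At2g39060*), the sucrose exporter needed for nectar, read 11.17, 11.14 and 10.12 in wild type at stage 12 and 12.59, 13.06 and 12.63 at stage 13, against 5.89, 5.96 and 6.47 and then 5.99, 5.92 and 5.86 in the mutant (-2.14 ± 0.37, adjusted p = 0.0182). The call was lost without stage 13 replicate B of either genotype (adjusted p up to 0.0572). All 6 nectary genes measured had negative interactions, with a median of -1.23, but the other 5 did not pass: the invertase gene *CWINV4*, which is needed for nectar secretion, stood at -1.65 (adjusted p = 0.058) and the nectary identity gene *CRC* at -0.80 (adjusted p = 0.27). Among 26 sugar transporter and cell wall invertase genes, 3 were lower (0.725% of all probe sets were), and the median was -0.08. The other 2 were *SAG29* (*SWEET15*, *At5g13170*; -2.04 ± 0.42, adjusted p = 0.0452), which also serves as a marker of senescence, and the cell wall invertase gene *ATBFRUCT1* (*At3g13790*; -1.47 ± 0.31, adjusted p = 0.0491), and they were called in 2 and 1 of the 12 fits without 1 array.

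The auxin-responsive *SAUR* genes had called interactions in both directions. *SAUR9* (*At4g36110*), a member of the small auxin-up RNA family, many of which promote cell expansion, read 6.43, 7.5 and 7.36 in wild type at stage 12 and 10.04, 10.82 and 11.13 at stage 13, while the mutant stayed between 5.04 and 5.57 on 6 arrays (-3.41 ± 0.42, adjusted p = 0.00333). *SAUR10* (-1.41 ± 0.27, adjusted p = 0.0338) and *SAUR63* (*At1g29440*; -1.5 ± 0.32, adjusted p = 0.0491) were also lower. *SAUR63* belongs to a cluster of close copies that the array may not separate, and its call was kept in 1 of 12 fits without 1 array. 2 *SAUR* genes were higher. *SAUR12* (*At2g21220*) fell in wild type from 9.51, 9.62 and 9.85 to 5.99, 6.35 and 6.16, and in the mutant from 9.89, 10.15 and 8.97 to 8.65, 8.84 and 7.63 (2.19 ± 0.47, adjusted p = 0.0491). It was alike in the genotypes at stage 12 and higher in every mutant array than in every wild-type array at stage 13, and its call was kept in 3 of 12 fits without 1 array. *SAUR70* (*At5g20810*) was the other (1.42 ± 0.26, adjusted p = 0.0262), called in 5 of 12 fits without 1 array.

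Over the 19 *SAUR* genes measured the median interaction was -0.05, with 10 negative and 9 positive. Calls were made for 3 lower and 2 higher, against 0.725% and 0.251% of all probe sets. Of 13 *Aux/IAA* genes, which encode the repressors of auxin response factors, 1 was called lower, 12 were negative, and the median was -0.47. The called member, *IAA1* (*At4g14560*), rose in wild type from 8.24, 7.92 and 8.30 to 8.86, 9.25 and 9.87 and went from 6.78, 7.42 and 7.16 to 6.85, 6.53 and 6.59 in the mutant (-1.64 ± 0.34, adjusted p = 0.0424), a call kept in 2 of 12 fits without 1 array. *IAA6* (-2.37, adjusted p = 0.075) and *IAA19* (-1.76, adjusted p = 0.078) had larger values and did not pass. 6 of the 13 *Aux/IAA* genes and 16 of the 19 *SAUR* genes are named through the study's tables, so these counts lean on genes that the study picked on these arrays. Of the 12 auxin synthesis and conjugation genes none was called, the most negative being *GH3.17* (-1.48 ± 0.40, adjusted p = 0.113) and *GH3.1* (-1.43 ± 0.33, adjusted p = 0.0651), which encode enzymes that join auxin to amino acids. Each gained a call in 1 of 12 fits without 1 array, that without wild-type stage 13 replicate A (adjusted p = 0.0344 and 0.0085). Over all alternatives *GH3.17* was called in 2 of 24 and *GH3.1* in 5 of 23.

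A peroxidase gene and the senescence genes *WRKY53* and *AtS40-3* rose in wild type with no called genotype difference at stage 12. *PRX71* (*At5g64120*), a secreted peroxidase gene, read 5.19, 4.99 and 5.16 in wild type and 4.97, 5.09 and 5.09 in the mutant at stage 12. At stage 13 it reached 8.43, 7.79 and 8.22 in wild type and stood at 5.17, 5.01 and 5.22 in the mutant, so it was at the same low level in 3 groups and high in 1 (-2.95 ± 0.20, adjusted p = 7.99e-05). *WRKY53* (*At4g23810*), a transcription factor gene of leaf senescence, followed the same pattern, from 5.04, 5.25 and 5.49 to 7.33, 7.30 and 7.21 in wild type and from 5.28, 5.91 and 5.33 to 5.55, 6.04 and 5.80 in the mutant (-1.73 ± 0.26, adjusted p = 0.00812). *AtS40-3* (*At4g18980*), whose product is a regulator of senescence, went from 6.07 to 6.45 at stage 12 to 8.14 to 9.29 at stage 13 in wild type and stayed between 5.45 and 5.98 in the mutant (-2.51 ± 0.37, adjusted p = 0.00812). Of the 7 senescence genes measured, of 18 listed, 2 were called lower (*SAG29* and *WRKY53*), against 0.725% of all probe sets. All 7 were negative, and the median was -0.92. *NAC047* stood at -0.92 (adjusted p = 0.32) and *ORE1*, a senescence regulator of leaves, at -0.28 (adjusted p = 0.95). These 2 genes, named through the study's tables, were called higher in the mutant than in wild type at both stages. Their median stage change was 1.66 in wild type, where both were called, and 1.06 in the mutant, where neither was.

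The rest of the 12 most negative named interactions were in genes outside the lists above. *At1g35190*, annotated as a 2-oxoglutarate and iron dependent oxygenase gene, went from 9.38, 9.10 and 8.71 to 12.06, 11.88 and 11.97 in wild type and from 7.69, 7.22 and 7.80 to 8.34, 7.92 and 7.90 in the mutant (-2.42 ± 0.28, adjusted p = 0.00189). *At5g10770*, annotated as a putative chloroplast nucleoid DNA-binding protein gene, was the one of the 12 called higher in the mutant at stage 12: the mutant read 9.98, 9.86 and 9.91 against 8.70, 8.69 and 7.60, and at stage 13 10.80, 11.06 and 10.53 against 11.70, 12.25 and 11.39 (-2.57 ± 0.41, adjusted p = 0.0119). *At2g47550*, *At2g43620*, *At1g07590* and *At5g67340* completed the set at -2.77, -2.57, -2.52 and -2.51. All 12 kept their calls in each of the 12 fits without 1 array, as the rule for choosing them required, and 9 kept them without mutant stage 12 replicates A and B. The calls lost there were those of *EXLA1* (adjusted p = 0.0617), *At2g47550* (0.0528) and *At5g10770* (0.0952). In every fit without 1 array the call was kept for 96 of the 165 lower probe sets in all.

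In *MLP28* and *PAL4* the larger stage change was on the mutant side. *MLP28* (*At1g70830*), a major latex protein-like gene, read 12.21, 11.30 and 11.77 and then 12.43, 12.30 and 12.36 in wild type, while the mutant fell from 10.38, 10.12 and 9.61 to 8.78, 8.35 and 8.21 (-2.19 ± 0.34, adjusted p = 0.0109; -1.77 and 0.0959 without stage 12 replicates A and B). *PAL4* (*At3g10340*), which encodes a phenylalanine ammonia-lyase at the entry to phenylpropanoid synthesis, went from 8.83, 9.31 and 7.40 to 7.06, 6.82 and 6.71 in the mutant, a stage change that was not called, and its interaction of -2.50 ± 0.53 (adjusted p = 0.0488) was called in 1 of the 12 fits without 1 array. Its 2 high stage 12 values are those of the arrays with the tapetum transcripts, and without both arrays the interaction was -1.39 (adjusted p = 0.0802). The part of those transcripts in the *PAL4* value was not tested. *GPT2* (*At1g61800*), a plastid glucose 6-phosphate transporter gene, was higher in the mutant at stage 12 (8.39, 8.56 and 8.06 against 7.02, 7.18 and 6.90) and close to wild type at stage 13 (7.81, 7.36 and 7.42 against 7.37, 7.77 and 7.55; -1.33 ± 0.23, adjusted p = 0.0186; -1.05 and 0.147 without the same 2 arrays).

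Among the higher interactions, jasmonate genes fell in wild type toward the level of the mutant. *LOX4* (*At1g72520*), which encodes a lipoxygenase of the step that starts jasmonate synthesis, read 7.67, 7.63 and 7.84 in wild type at stage 12 and 6.14, 5.93 and 6.01 at stage 13. The mutant read 6.05, 5.87 and 5.80 and then 5.85, 5.86 and 6.0, so the genotypes differed at stage 12 and overlapped at stage 13 (1.68 ± 0.14, adjusted p = 0.000267). *JAZ5* (*At1g17380*), a gene for a repressor that jasmonate both induces and removes, fell in wild type from 9.69, 9.29 and 9.67 to 7.51, 7.45 and 7.70 and went from 6.34, 6.27 and 6.24 to 5.93, 5.87 and 5.82 in the mutant (1.59 ± 0.16, adjusted p = 0.000754). It stayed lower in the mutant at both stages, by 3.27 and then by 1.68 log2. *JAZ7* was called at 1.5 ± 0.31 (adjusted p = 0.0426), in 3 of 12 fits without 1 array.

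Of the 14 jasmonate response genes measured, 2 were called higher and none lower, against 0.251% and 0.725% of all probe sets. A further 3 (*JAZ3*, *JAZ8* and *JAZ9*) passed the adjusted p below the 2-fold requirement, at 0.77, 0.98 and 0.93. The family was not uniform, with *JAZ10* at -0.87 (adjusted p = 0.25), *JAZ1* at -0.52 (adjusted p = 0.65) and *MYC2*, the main transcription factor gene of the response, at -0.08. Of the 7 jasmonate synthesis genes *LOX4* alone was called, and *LOX3* (0.77), *OPR3* (0.51), *LOX2* (0.47) and *AOS* (0.13) did not pass. 12 of the 14 response genes and 5 of the 7 synthesis genes were named through the study's tables, and none of those named by the array annotation was called.

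The *MYB* genes of flower maturation did not share an interaction. *MYB24* (*At5g40350*) fell in wild type from 10.24, 9.47 and 9.99 to 8.73, 8.50 and 8.37 and lay between 3.67 and 4.25 on the 6 mutant arrays, at both stages below every wild-type array (1.44 ± 0.29, adjusted p = 0.0393; called in 5 of 12 fits without 1 array). *MYB21* stood at 0.90 (adjusted p = 0.39) and *MYB108* at 0.37 (adjusted p = 0.96). *MYB57* had the opposite sign, -2.71 (adjusted p = 0.095). Of the 4 genes 1 was called, and the median was 0.63.

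The largest positive interactions lay in genes that were high in wild-type buds and low in open flowers, with a mutant that was low at both stages. *KCS17* (*At4g34510*), which encodes a condensing enzyme of very long chain fatty acid synthesis, read 11.08, 9.10 and 11.19 in wild type at stage 12 and 7.42, 7.2 and 6.38 at stage 13, and between 5.35 and 5.72 in the mutant (3.41 ± 0.65, adjusted p = 0.0314). *ABCG20* (*At3g53510*), a transporter gene of suberin monomers, read 9.93, 8.2 and 10.29, then 7.01, 6.54 and 6.34, against 5.48 to 5.70 in the mutant (2.94 ± 0.58, adjusted p = 0.0366). *IMS2* (*At5g23020*, also *MAM3*), whose enzyme lengthens methionine side chains for aliphatic glucosinolates, read 7.65, 6.15 and 8.03 in stage 12 wild type and 4.42 to 4.80 on all other arrays (2.77 ± 0.50, adjusted p = 0.0257). *UMAMIT25* (*At1g09380*), an amino acid transporter gene, fell from 10.12, 7.89 and 9.94 to 6.50, 6.47 and 6.79 in wild type and read 6.56 to 7.04 in the mutant (2.96 ± 0.63, adjusted p = 0.0491). In all 4 genes replicate B was well below the other 2 stage 12 wild-type arrays, and the calls were kept in 3, 3, 4 and 2 of the 12 fits without 1 array. The interaction stayed positive in every one of those fits.

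*FRD3* (*At3g08040*), which encodes a citrate exporter that keeps iron soluble in the apoplast, showed the same shape with less spread: 9.79, 9.10 and 10.31 in stage 12 wild type against 7.05 to 7.43 at stage 13 and 7.13 to 7.91 in the mutant (2.71 ± 0.37, adjusted p = 0.00583). It kept its call in all 12 fits without 1 array and lost it without mutant stage 12 replicates A and B (2.47, adjusted p = 0.065). The call was kept under both omissions for the light-response transcription factor gene *GATA2* (*At2g45050*), which went from 8.50, 8.17 and 8.31 to 6.33, 6.14 and 6.11 in wild type and lay between 6.19 and 6.82 in the mutant (1.89 ± 0.21, adjusted p = 0.00158). Next to *GATA2* on the chromosome, *At2g45040* was called in the opposite direction (-1.47 ± 0.30). All 10 aliphatic glucosinolate genes measured had positive interactions, with a median of 1.04, and *IMS2* was the only member called. The list did not share the shape of *IMS2*. In the mutant 9 of the 10 were called higher at stage 13 (2.7% of all probe sets). At stage 12, 4 were higher (1.42%) and 1 lower. Only 1 fell in wild type by call, and the median stage changes were -0.45 in wild type and 0.64 in the mutant. Of the 10, 7 are named through the study's tables.

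A smaller set of higher interactions came from genes that stood higher in the mutant and drew further apart. *DIN2* (*At3g60140*), a dark- and starvation-induced beta-glucosidase gene, read 4.50 to 5.20 on the 6 wild-type arrays, and in the mutant rose from 8.44, 7.76 and 8.58 to 10.05, 9.76 and 10.21 (1.66 ± 0.33, adjusted p = 0.0361; called in 2 of 12 fits without 1 array). *At1g54740*, an unnamed expressed protein gene, rose in the mutant from 8.26, 7.56 and 7.78 to 9.20, 8.92 and 9.11 and read 6.11 to 6.78 in wild type (1.61 ± 0.23, adjusted p = 0.00812). *SQE6* (*At5g24160*), a squalene epoxidase gene of sterol synthesis, rose from 7.19, 7.02 and 7.33 to 8.33, 8.42 and 8.35 in the mutant and lay between 5.70 and 6.16 in wild type (1.08 ± 0.17, adjusted p = 0.013). In *UMAMIT33*, *SFP1* and *BBX14*, which encode an amino acid transporter, a sugar transporter and a B-box transcription factor, the stage changes had opposite signs in the genotypes (-0.59 and 0.98, -0.89 and 0.86, -0.86 and 0.40, wild type first), none of them called alone, and the interactions were 1.57 ± 0.26, 1.75 ± 0.30 and 1.26 ± 0.20. Of the 6 sugar starvation and dark-inducible genes measured *DIN2* alone was called, all 6 were positive, and the median was 1.28, with *DIN6*, an asparagine synthetase gene, at 1.86 (adjusted p = 0.096) and *DIN1* at 2.07 (adjusted p = 0.51).

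In *At1g64800*, an expressed protein gene, the genotype difference was called in opposite directions at the stages. Wild type read 8.69, 7.64 and 8.43 at stage 12 and 5.24, 5.52 and 5.35 at stage 13, a 7.37-fold fall, and the mutant 7.16, 6.74 and 7.0 and then 6.82, 6.82 and 5.65. The mutant was lower by 1.29 log2 at stage 12 and higher by 1.06 at stage 13, without overlap at either stage. The interaction was 2.35 ± 0.45 (adjusted p = 0.0342) and was called in 3 of 12 fits without 1 array.

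Of the 13 pollen genes measured 1 was called higher, against 0.251% of all probe sets. All 13 pollen genes measured, of 38 listed, had positive interactions, with a median of 0.95 against 0 over all probe sets, and 1, the ion channel gene *CNGC18* (*At5g14870*), was called: 8.17, 7.62 and 7.56 fell to 6.51, 6.16 and 5.91 in wild type, while the mutant read 6.87, 6.28 and 6.94 and then 6.85, 7.04 and 6.41 (1.66 ± 0.34, adjusted p = 0.041; called in 3 of 12 fits without 1 array). The summed pollen signal, in linear units, was 5410 to 7630 in stage 12 wild type, 3320 to 5300 in stage 13 wild type, 2060 to 4160 in the stage 12 mutant and 4050 to 5070 in the stage 13 mutant, and none of the 13 was at zero. Stage 12 mutant replicate B, which had the most tapetum signal, had the least pollen signal. *ANN5* and *RABA4D*, which are expressed in pollen too, were called higher at 2.09 ± 0.44 and 1.47 ± 0.31. The part of pollen content in the higher calls was not tested. The 2 tapetum genes had interactions of -2.35 (*A9*, adjusted p = 0.514) and -1.24 (*AMS*, adjusted p = 0.609), and without stage 12 mutant replicate C they were called, at -3.53 and -1.97. Without replicates A and B they were 0.02 and 0.23. The 6 photosynthesis genes, none of them called, summed to 34400 to 40100 in wild type and 46500 to 50000 in the mutant, higher in the mutant at both stages, and the 4 carpel and ovule genes had a median interaction of -0.08.

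Over the 24 pathway lists with a measured member, 200 genes were measured, of which 18 were called lower and 9 higher. Over all probe sets the shares were 0.725% and 0.251%. Of the 99 named by the array annotation 9 were lower and none higher. At a share of 0.251% over all probe sets, a lack of higher calls among 99 genes cannot tell these lists from the rest. The other 101 are named through tables of genes that the study selected on these arrays, so their calls are not independent of the data. Lists with no call in either direction included gibberellin (6 genes; *GASA4* passed the adjusted p at 0.85, below 2-fold), flavonoid (5), and water deficit and abscisic acid (6), and in these lists a missed call does not show that the genotypes changed alike. The reference genes *GAPC2* and *TUB6* stood at -0.08 and 0.15.

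**Figure D4:**
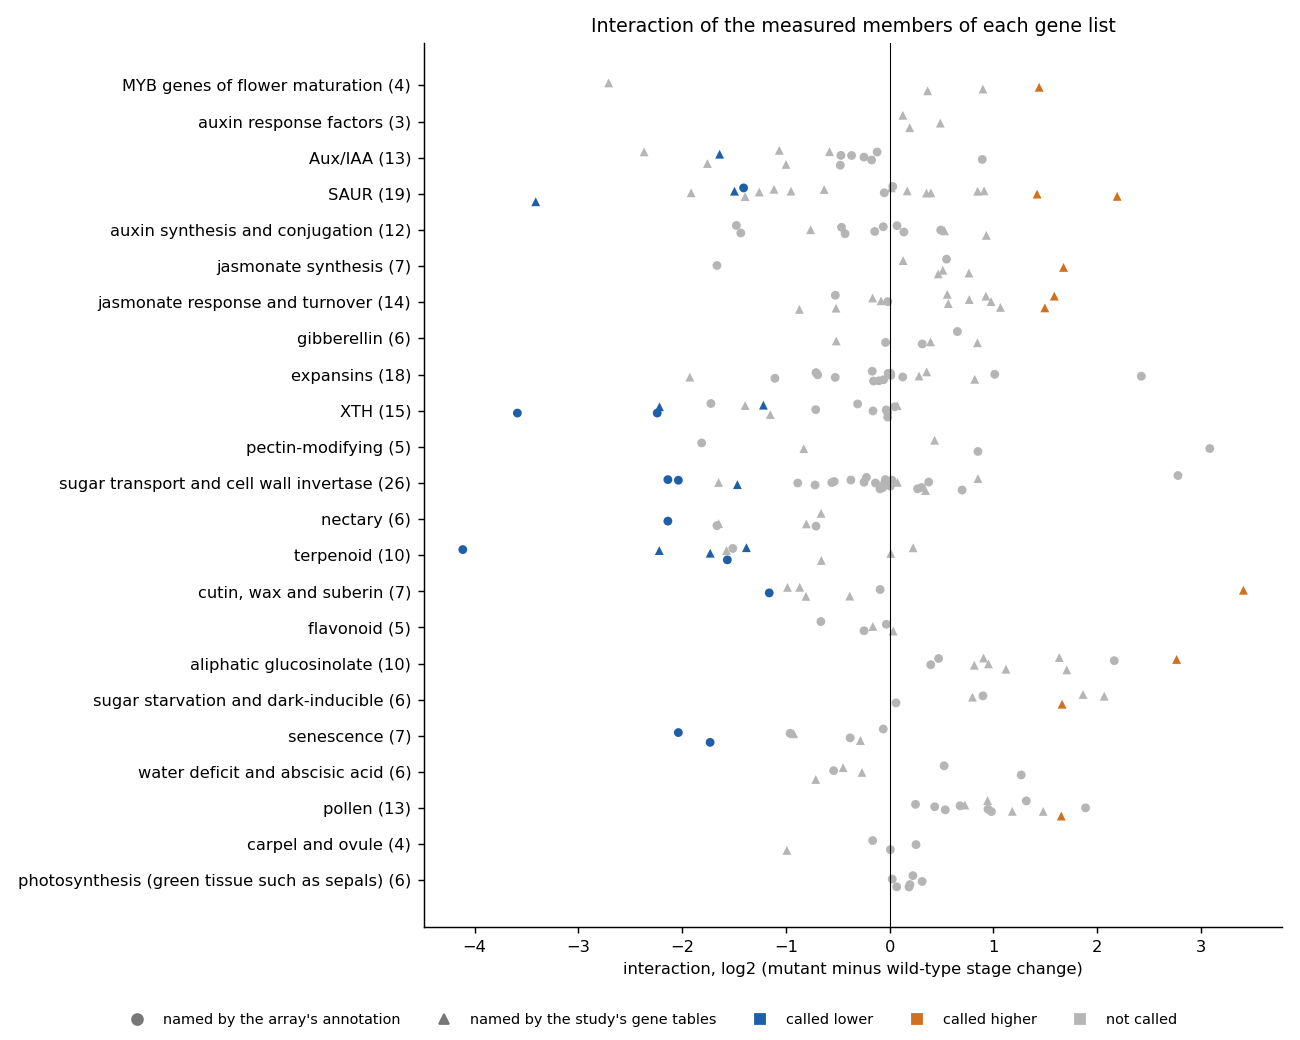
Genotype by stage interaction (log2) of the measured members of each pathway and marker list with at least 3 measured, 1 row per list; circles are genes named by the array annotation, triangles genes named through the study's tables, and colour shows calls (blue lower, orange higher, grey not called). The terpenoid and *XTH* rows hold the most lower calls, 5 and 4. The pollen, glucosinolate, starvation, photosynthesis and auxin response factor rows lie wholly above 0.

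The *myb21-5 myb24-5* flowers, which lack those MYB proteins' function and were arrayed at the same stages, give the same probe sets in a mutant in which *ARF6* and *ARF8* are not mutated. In that genotype the array given as stage 13 replicate A stood apart from its group: its difference from *arf6-2 arf8-3* stage 13 replicate A had an SD of 0.121 over probe sets, against 0.257 to 0.481 for pairs within the 4 groups. On it *ARF6* read 4.75 and *ARF8* 5.68, at the level of *arf6-2 arf8-3*, against at least 9.21 and at least 9.69 on the other 5 arrays of the genotype. These values go against its label. On it *JAZ5* read 5.98, against 10.94 and 10.77 on the other arrays of its group, and *MYB24* 3.88 against 9.85 and 9.07. Without that array 2 probe sets had a lower stage change in *arf6-2 arf8-3* than in the other mutant by limma (0.00879%), both without a gene name and outside the 222, and 0 a higher one (858 and 654 at an unadjusted p below 0.05). With all 18 arrays, the doubted array included, the counts were 0 and 0 (0.0%; 316 and 181 at an unadjusted p below 0.05).

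For the 165 lower probe sets the median stage change was -0.02 in *arf6-2 arf8-3* and 0.13 in *myb21-5 myb24-5* without that array, against 1.65 in wild type. For the 57 higher ones it was 0.07 and 0.02, against -1.53. The wild-type and *arf6-2 arf8-3* arrays enter the choice of these probe sets, so the closeness of the mutant medians to each other is a description. At single genes the levels in the mutants are given side by side. *TPS10* read 9.10, 9.55 and 9.53 at stage 12 and 10.27 and 9.93 at stage 13 in *myb21-5 myb24-5*, against 5.70 to 6.35 in *arf6-2 arf8-3*, with stage changes of 0.70 and -0.16. *LOX4* read 8.78, 8.90 and 9.54 and then 9.48 and 9.51, above its *arf6-2 arf8-3* level throughout, with stage changes of 0.42 and -0.01. *SWEET9* lay between 5.98 and 6.45 there and *FRD3* between 7.01 and 7.66, close to their *arf6-2 arf8-3* levels.

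The calls depended on single arrays more on the higher side. In the 12 fits that each left out 1 array, the lower count ran from 106 to 244 and the higher count from 29 to 155. The lower count moved by over 1.5 times without wild-type stage 13 replicate B (106) and without mutant stage 13 replicate A (109). The higher count did so in 9 of the 12 fits. It was 155 without mutant stage 12 replicate C and 94 without wild-type stage 12 replicate B. It was 33 and 36 without mutant stage 12 replicates A and B, 29 without wild-type stage 12 replicate C, 30 and 31 without wild-type stage 13 replicates B and C, and 31 and 29 without mutant stage 13 replicates A and B. By call, 96 lower and 22 higher probe sets remained in all 12 fits.

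**Figure D5:**
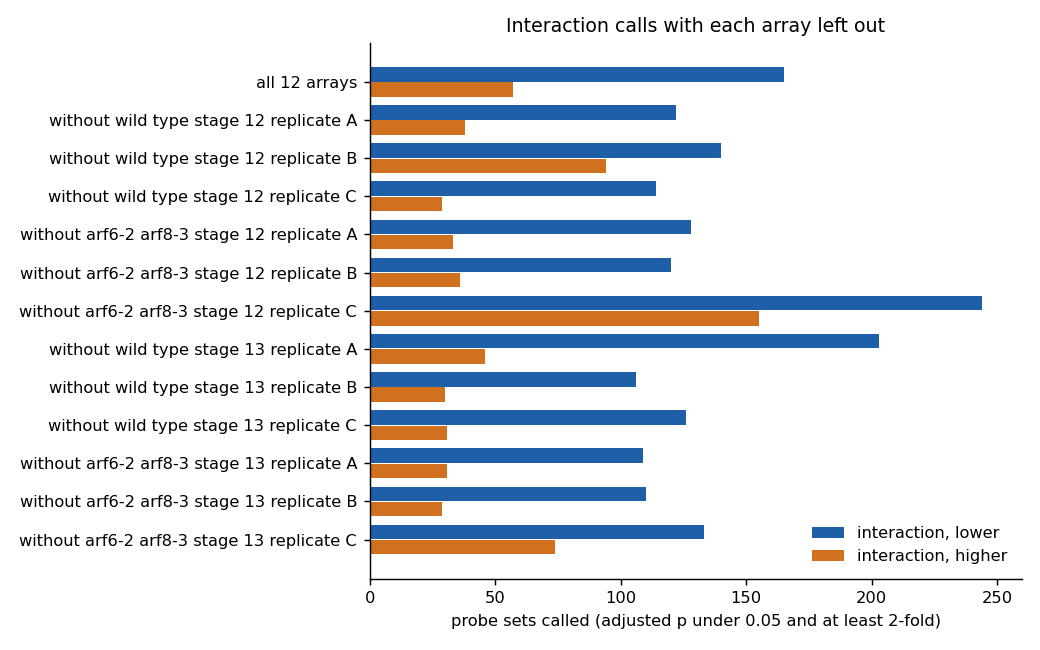
Number of probe sets called lower and higher in the interaction as bars, from all 12 arrays (165 and 57, top) and in each of the 12 fits that leave out 1 array. The counts are highest, 244 and 155, without mutant stage 12 replicate C, and the higher count is lowest, 29, without wild-type stage 12 replicate C or mutant stage 13 replicate B.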

How the data were processed

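Total RNA from whole flowers was hybridised to Affymetrix ATH1 arrays, 3 biological replicates a group. Per the submitters' processing notes and the study's methods, the authors scanned with MAS5 and summarised by RMA without a baseline. The deposited values are log2 signals. The number of arrays limits the precision. The limma p-values set each contrast against the variance within groups of 3 replicates, pooled over the groups of the fit and moderated over all probe sets.

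From 22810 probe sets 64 controls were left out and 22746 tested, with no filter on low values. Names came from the platform annotation (13513 probe sets), otherwise from the study's gene tables (512). A further 503 match several genes, and 8218 stayed unnamed. The 4 groups were fitted with limma 3.58.1 (R 4.3.3), moderated with eBayes, with Benjamini-Hochberg adjustment. A call required an adjusted p below 0.05 and a 2-fold change. Stage changes and genotype differences came from the same fit. The *myb21-5 myb24-5* comparison used a second fit to all 18 arrays, and a repeat without 1 array.

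Named genes were the 12 most negative and 12 most positive calls kept in every fit without 1 array, in each list the called members of largest interaction, 4 at most, and otherwise the 2 largest, the 3 largest of each stage-change class, *ARF6*, *ARF8*, and calls of opposite genotype effect. Other genes in the text were chosen after their values were seen. Members, lists and rules were chosen with earlier results of these data known.

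Alternatives were other array sets, variance priors, array weights, least squares, scalings, thresholds, a replicate block and the omission of each array. Replicate letters were checked for pairing by the correlation of deviations from group means. Every same-letter pair within a genotype exceeded 0.1, so the blocked counts stand beside the stage changes. Over the 4 groups 1 pair did not, and the blocked interaction counts are given beside the main ones. List summaries and figures used Python 3.11.15, pandas 2.3.3 and matplotlib 3.10.9. The scripts were tested on simulated data. Promoter and protein sequences were not analysed here.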

Additional observations from a re-analysis of the deposited data

Results flagged for a closer look

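A difference between stages in the genotype effect, tested as an interaction, was found for 165 probe sets on the lower side and 57 on the higher side (limma, adjusted p below 0.05 and 2-fold). *At1g64800* is listed because its genotype effect was called in opposite directions at stages 12 and 13, with an interaction of 2.35. Groups of 3 arrays were not screened value by value for outliers.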

How the results depend on the processing

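No called interaction of a named gene changed sign under any alternative, and 7 of the 26 not called did, *A9*, *AMS* and *ARF8* among them. Of 639 values for called named genes under other settings 528 kept the call and 111 lost it, and of 306 for genes not called 10 gained it. Fits without 1 array kept 471 of 660 calls. With all 18 arrays the mutant stage changes numbered 27, and with 17 arrays 189. Least squares with adjusted p gave 65 lower, 16 higher, 7 mutant stage changes and a share of 93.8% with a wild-type rise only, and with unadjusted p 311 and 251. Array weights gave 158 higher, 627 mutant stage changes and 73.2%. The higher count was 93 at any fold and 92 at 1.5-fold. The counts were 46 and 13 at 4-fold, 72 and 15 at an adjusted p below 0.01, and 72 and 26, with 536 wild-type stage changes, without probe sets of mean under 7. Centring on 2 reference genes gave 110 mutant stage changes and 92.0%. Over the 4 groups replicate letters paired most but not all arrays: 17 of 18 letter pairs had r over 0.1. The lowest (stage 12 replicates B of the genotypes) was -0.02, and 9 of 12 arrays correlated best with their own letter. With the replicate block the counts were 268 lower and 143 higher, with all 165 and 57 kept, 315 mutant stage changes and 78.7%. Without 1 array the ranges were 106 to 244 lower, 29 to 155 higher, 664 to 867 wild-type and 7 to 693 mutant stage changes, 801 to 1179 and 1375 to 1466 genotype differences at stages 12 and 13, 52.9 to 95.3% for the share, and 0 to 2 lower and 0 to 0 higher between the mutants. Without mutant stage 12 replicates A and B, a choice made after the data were seen, they were 98, 30, 3 mutant stage changes and 91.8%. The causes of these shifts were not tested. Signal over background is unknown, which limits what can be read from dim probe sets.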
